A study of Equus asinus with 6 samples.

Results

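The glucocorticoid receptor gene NR3C1 and 8 genes of its pathway were followed in back muscle of donkeys with high or low intramuscular fat (IMF), the fat deposited within a muscle. The 9 genes are NR3C1, HSD11B1, FKBP5, ZBTB16, TSC22D3, CDKN1C, ERRFI1, MAOA and GLUL. They were picked by gene name from a table of 20873 genes, where each had a single row, and all 9 passed the filter on low counts. The tissue was longissimus dorsi of Guangling donkeys, a Chinese breed, aged 24 months in every library. High IMF muscle gave 3 libraries and low IMF muscle gave 3, with replicate numbers 1 to 3 in the sample titles. No animal carried a named treatment or allele, and the sex, the feeding, the hour of slaughter and the measured fat content were not among the labels. Whether each library stands for its own animal is not stated either, so every p-value below reflects library-to-library spread, which may be technical.

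Glucocorticoids are steroid hormones of the adrenal cortex. They enter the cell and bind the receptor, which is held ready by heat shock protein chaperones, and the receptor then moves to the nucleus and switches genes on or off. In skeletal muscle the hormones are known for protein breakdown, for release of amino acids and for a switch of fuel use, and in fat tissue they favour the maturation of adipocytes. Many target genes are known from human and rodent cells rather than from donkeys.

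The libraries held 39052998 to 47494157 reads in high IMF muscle and 44313770 to 46360965 in low IMF muscle. All 8 muscle fibre markers checked were present, with a summed level of 93928 to 163007 CPM in high and 120699 to 167034 CPM in low IMF libraries, in keeping with the tissue label. CPM is the read count of a gene scaled to a common library total after normalization between libraries. The summed level of 8 adipocyte markers did not separate the groups, with 341 to 687 CPM in high and 469 to 515 CPM in low IMF libraries. Of these markers, 6 had a higher and 2 a lower mean in high IMF muscle. Low IMF replicates 2 and 3 were far closer to each other (chi-square per degree of freedom 7.7) than any other pair within a group (193 to 560), but they still differed by more than sampling noise and were counted as separate libraries. In this tissue homogenate, fewer cells of a type and less RNA per cell cannot be told apart.

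High and low IMF muscle were compared to ask which of these transcripts go with the high IMF label. FKBP5, ZBTB16 and CDKN1C, all known to be induced by glucocorticoids in human cells, were lower in every high IMF library than in any low IMF library. Transcripts of the receptor itself, of TSC22D3 and of GLUL differed by less than the spread between libraries. None of the 9 passed the threshold (adjusted p under 0.05) in edgeR's quasi-likelihood test, which also called 0% of the 15933 genes tested. At an unadjusted p under 0.05 there were 3 of the 9 (33.3%), against 7.27% of all genes tested, and all 3 were lower in high IMF muscle, a direction that 2.74% of all genes took at that level. The 9 genes were chosen with earlier results of these data known, so this count is not independent evidence of a direction. Without high IMF replicate 1 the count was 5 of the 9, with ERRFI1 higher and MAOA lower added, where 8.3% of all genes tested reached that level. Omitting high IMF replicate 3 raised that share to 12.5%. It was 4.32% and 4.6% when replicate 2 or replicate 3 of the low IMF group was omitted, and 4.26% when both were summed into 1 library. In these 4 settings the same 3 of the 9 genes reached it. The groups were separate for the same 3 genes, where 13% of all genes tested had separate groups and 6.1% had them with high IMF lower. In the DESeq2 Wald test, 1 of the 9, FKBP5, passed (adjusted p = 0.00674), beside 1.15% of all genes with an adjusted p. Of the 9 log2 folds, 4 were positive and 5 negative (51.2% and 48.8% of all genes tested), and their median was -0.29 beside 0.01 over all genes tested.

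**Figure D1:**
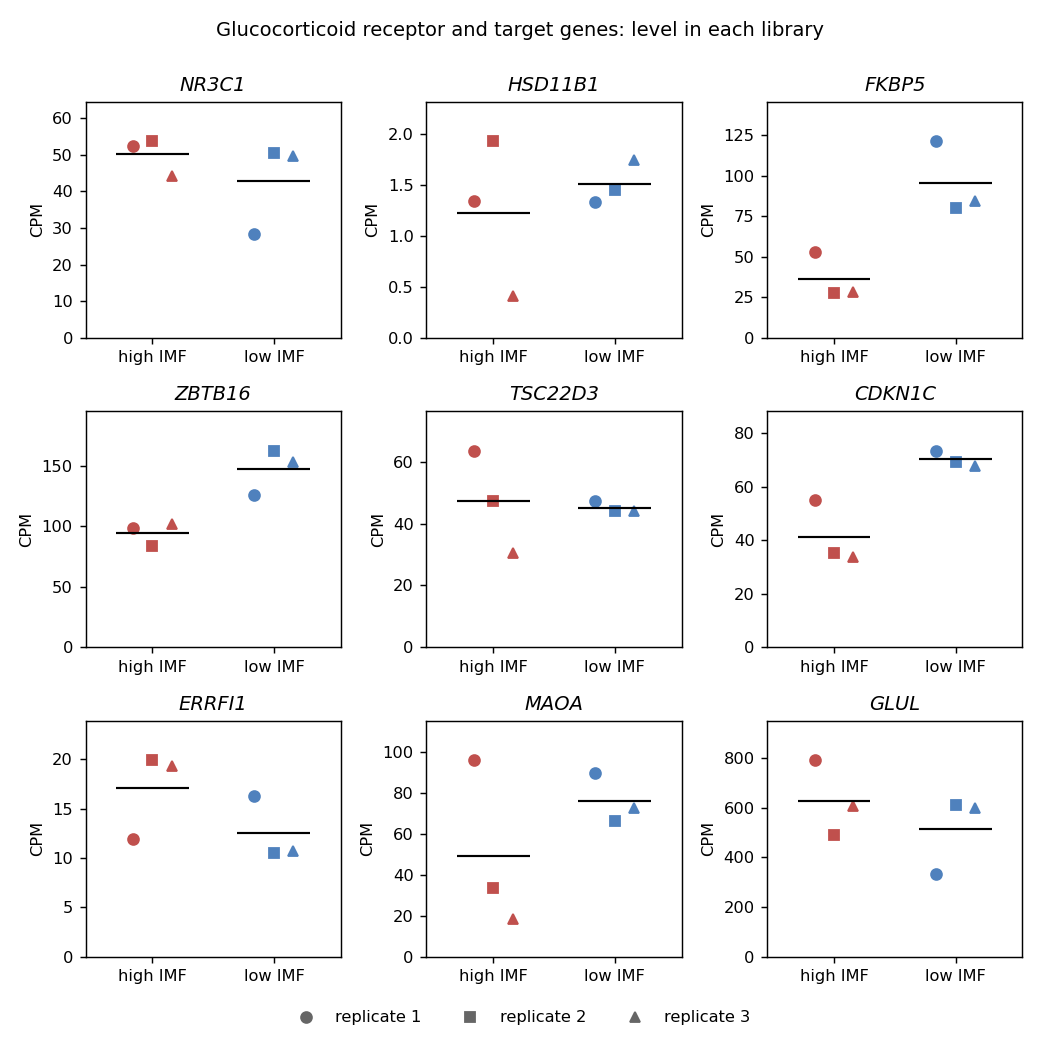
Level of each of the 9 genes in CPM (y axis, linear, from 0) in the 3 high and the 3 low IMF libraries. Each point is a library, its shape gives the replicate number, and the bar is the group mean. The high IMF points lie below all low IMF points for FKBP5, ZBTB16 and CDKN1C, and the groups overlap for the other 6 genes.

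FKBP5 encodes a co-chaperone that binds the receptor complex and lowers its affinity for hormone, and its induction by hormone makes a feedback loop. It measured 53.0, 27.7 and 28.1 CPM in high IMF replicates 1 to 3, against 121, 80.0 and 84.6 CPM in low IMF replicates 1 to 3. The highest high IMF library, replicate 1, thus lay well under the lowest low IMF library. The means were 36.3 ± 14.5 CPM in high and 95.3 ± 22.7 CPM in low IMF muscle (SD, n = 3 each). The log2 fold of high over low was -1.39 ± 0.31 (SE), with a 95% interval of -2.12 to -0.67, or a level 2.63-fold higher in low IMF muscle. Its adjusted p was 0.51 in edgeR and lay between 0.00674 and 1 over the alternatives. In the authors' deposited table FKBP5 had a log2 fold of -1.41 and an adjusted p of 0.00709, and of the 9 genes it alone was marked there as down.

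Cell type markers went both ways in the same comparison. The summed level of 6 smooth muscle and pericyte markers was 475 to 719 CPM in high and 788 to 1076 CPM in low IMF libraries, also without overlap, and 5 of the 6 markers had a lower mean in high IMF muscle. Of 7 endothelial markers, 6 had a lower mean in high IMF muscle, although their sum overlapped (417 to 812 and 789 to 914 CPM). On the other side, all 7 fibroblast markers and 6 of 7 macrophage markers had a higher mean in high IMF muscle, and both sums overlapped. None of these markers was at 0 in any library. Their part in the lower FKBP5, ZBTB16 and CDKN1C levels was not tested. In a RefSeq annotation of assembly EquAss-T2T_v2 the gene ARMC12 overlaps FKBP5. It had 270 to 791 reads per library, beside 970 to 5826 for FKBP5. LAMB3 overlaps HSD11B1 in the same way and had 211 to 788 reads. Whether the authors' counting used strand is not given, so shared reads cannot be told apart.

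ZBTB16 encodes a zinc finger transcription factor that hormone induces strongly in several human tissues. It measured 98.5, 84.1 and 102 CPM in high IMF replicates 1 to 3, against 126, 163 and 153 CPM in low IMF replicates 1 to 3. The libraries of each group were close together, with the highest 1.21-fold over the lowest in high and 1.3-fold in low IMF muscle. The log2 fold was -0.64 ± 0.17 (SE; 95% interval -1.04 to -0.23), with an adjusted p of 0.523 in edgeR and 0.0688 in DESeq2.

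CDKN1C, an inhibitor of cyclin-dependent kinases that holds cells out of the cell cycle, measured 55.2, 35.3 and 33.6 CPM in high IMF replicates 1 to 3. Low IMF replicates 1 to 3 had 73.5, 69.3 and 67.7 CPM. The low IMF libraries were nearly equal, and the high IMF libraries lay below them with a wider spread. The log2 fold was -0.76 ± 0.22 (SE; 95% interval -1.27 to -0.25) and the adjusted p 0.523 in edgeR. With scaling by library size only, the unadjusted p of CDKN1C was 0.0698, and those of FKBP5 and ZBTB16 were 0.0123 and 0.0191.

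**Figure D2:**
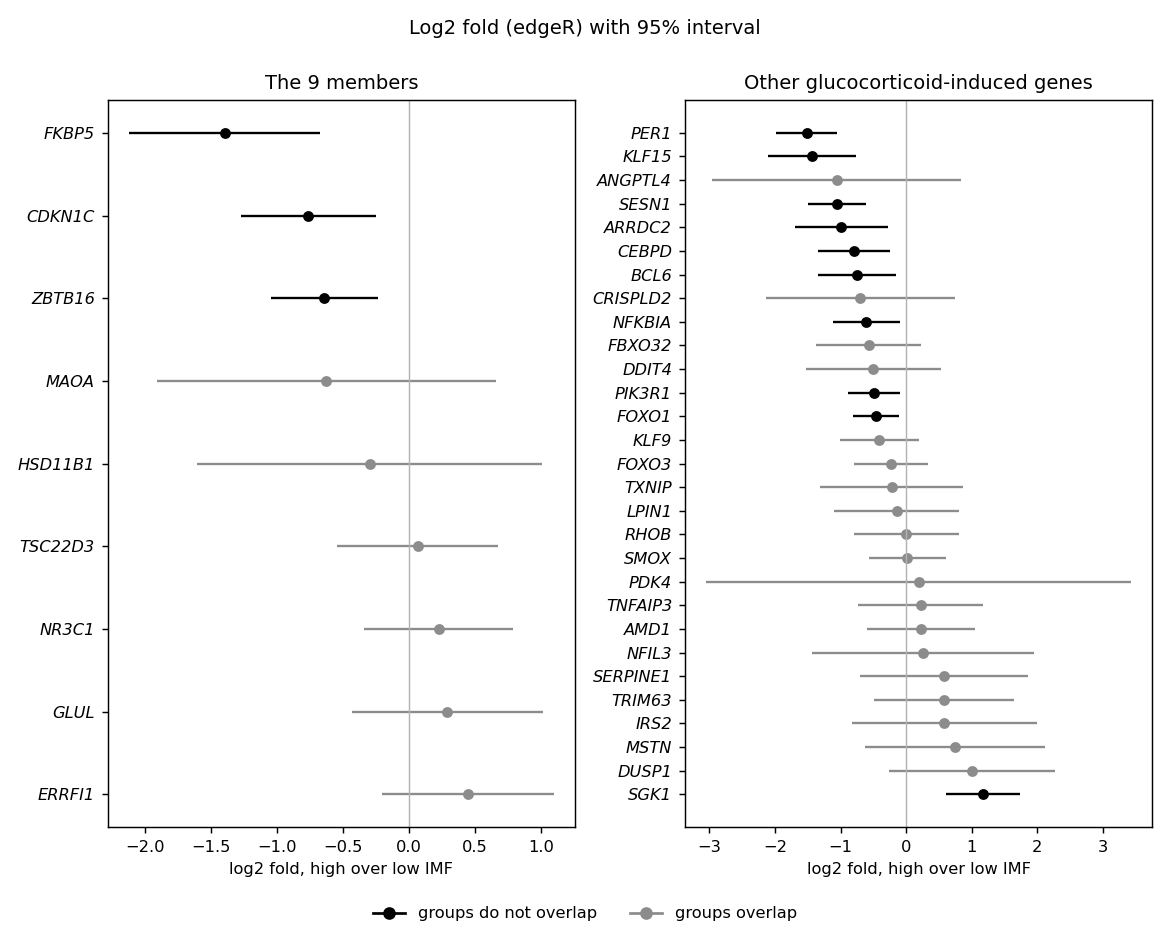
Log2 fold of high over low IMF (x axis) with its 95% interval from edgeR for the 9 genes (left) and for 29 further glucocorticoid-induced genes (right), ordered by fold. Black marks genes whose groups do not overlap and grey those that overlap. The black intervals of FKBP5, CDKN1C and ZBTB16 lie wholly below 0, as do 9 intervals on the right, and SGK1 is the single black one above 0.

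The receptor gene NR3C1 measured 52.3, 53.7 and 44.3 CPM in high and 28.5, 50.6 and 49.6 CPM in low IMF replicates 1 to 3. All libraries but low IMF replicate 1 lay between 44.3 and 53.7 CPM, and the groups overlapped. The log2 fold of 0.23 (95% interval -0.34 to 0.79) was -0.01 without low IMF replicate 1. The interval does not reach a doubling or a halving of the level.

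HSD11B1 encodes the enzyme that turns inactive cortisone back into cortisol inside the cell. It was the scarcest of the 9, with 61, 103 and 14 reads in high and 64, 60 and 72 reads in low IMF replicates 1 to 3. Replicate 3 of the high IMF group stood apart with 0.406 CPM, and the other 5 libraries had 1.33 to 1.93 CPM. The log2 fold was -0.29 with a wide 95% interval of -1.6 to 1.01, and it was 0.11 without high IMF replicate 3. The summed level of 8 adipocyte markers was also lowest in that library (341 CPM) and, like HSD11B1, highest in high IMF replicate 2 (687 CPM), with 469 to 515 CPM in low IMF libraries. LEP, one of these markers, was at 0 in low IMF replicate 1. High IMF replicate 3 was also the lowest of all 6 libraries in the summed fibroblast (240.5 CPM), endothelial (417 CPM), smooth muscle and pericyte (475 CPM) and macrophage (23.2 CPM) markers. The part of these cell types in the HSD11B1 level was not tested.

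TSC22D3 encodes a leucine zipper protein that carries much of the anti-inflammatory action of the hormone. Its level was 63.7, 47.5 and 30.5 CPM in high IMF replicates 1 to 3, against 47.3, 44.1 and 44.0 CPM in low IMF replicates 1 to 3. The high IMF libraries thus lay on both sides of a narrow low IMF range. The log2 fold was 0.07 (95% interval -0.54 to 0.68), and it was -0.22 without high IMF replicate 1.

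ERRFI1, an inhibitor of the epidermal growth factor receptor, had 11.9, 19.9 and 19.3 CPM in high and 16.2, 10.5 and 10.7 CPM in low IMF replicates 1 to 3. Replicate 1 of each group lay on the side of the other group. The log2 fold was 0.45 ± 0.28 (SE), the highest of the 9, with an adjusted p of 0.828 in edgeR.

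MAOA encodes a mitochondrial enzyme that breaks down amines and is induced by glucocorticoids in human muscle cells. It measured 96.3, 33.4 and 18.4 CPM in high IMF replicates 1 to 3, a 5.23-fold range, against 89.7, 66.2 and 72.7 CPM in the low IMF libraries in that order. Of all 6 libraries, high IMF replicate 1 was the highest, and the other high IMF libraries were the lowest. The log2 fold of -0.63 (95% interval -1.91 to 0.66) was -1.57 without high IMF replicate 1 (adjusted p = 0.279 in edgeR). Leaving out replicate 2 of that group gave -0.42, and leaving out its replicate 3 gave -0.24. The same order within the high IMF group was seen in the sums of 7 fibroblast markers (1324, 1152 and 240.5 CPM in replicates 1 to 3), of 7 endothelial markers (812, 676 and 417 CPM) and of 7 macrophage markers (110, 58.2 and 23.2 CPM). In low IMF replicates 1 to 3 the fibroblast sum was 282, 622 and 684 CPM and the macrophage sum 27.8, 33.0 and 31.8 CPM, both lowest in replicate 1, where MAOA was highest in that group. The endothelial sum there was 914, 793 and 789 CPM, highest in replicate 1. Their part in the MAOA levels was not tested.

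GLUL, the glutamine synthetase that muscle uses to export nitrogen and that glucocorticoids induce in rodent muscle, measured 792, 488 and 605 CPM in high IMF replicates 1 to 3. Low IMF replicates 1 to 3 had 331, 609.5 and 597 CPM. The highest was high IMF replicate 1 and the lowest low IMF replicate 1, and the other 4 libraries lay between them. The log2 fold was 0.29 ± 0.31 (SE), and it was 0.05 without low IMF replicate 1 and 0.08 when high IMF replicate 1 was omitted.

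Levels between genes were compared on the deposited FPKM scale, which divides a gene's reads by its length and by the library's total. GLUL stood far above the rest with 214 FPKM on average in high and 155 FPKM in low IMF muscle. ZBTB16 (29.5 and 41.5 FPKM) and CDKN1C (26.8 and 40.6 FPKM) came next, and their ranges overlapped in both groups. TSC22D3 (20.1 and 16.9 FPKM), FKBP5 (9.57 and 22.6 FPKM), MAOA (12.2 and 16.3 FPKM) and NR3C1 (13.7 and 10.4 FPKM) formed a middle tier, where neighbours in this order overlapped in high IMF muscle and, in low IMF muscle, MAOA and NR3C1 did not. In it, TSC22D3 was above FKBP5 in all 3 high IMF libraries and below it in all 3 low IMF libraries. CDKN1C, placed above this tier, was higher than TSC22D3 in every library, but their ranges overlapped in high IMF muscle. ERRFI1 (5.66 and 3.86 FPKM) lay below NR3C1 in every library, and HSD11B1 (0.98 and 1.04 FPKM) below ERRFI1.

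Because a ratio of 2 genes within a library does not depend on the scaling of that library, FKBP5 was also set against the receptor and against FKBP4, the related co-chaperone that in mice is needed for several steroid receptors. Both ratios were chosen after the values had been seen. FKBP5 per NR3C1 (FPKM ratio) was 0.965, 0.492 and 0.603 in high IMF replicates 1 to 3, against 4.06, 1.51 and 1.62 in low IMF replicates 1 to 3. FKBP5 transcripts were thus fewer per length than those of the receptor in every high IMF library and more numerous in every low IMF library. FKBP5 per FKBP4 was 0.302, 0.115 and 0.0946 in high and 0.886, 0.351 and 0.384 in low IMF libraries, also without overlap. A two-sided exact permutation test gave p = 0.1 for each of the 2 ratios, adjusted p = 0.1, which is the smallest p that 3 against 3 libraries allow. The groups were already separate for FKBP5 alone, so this test is not independent evidence.

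**Figure D3:**
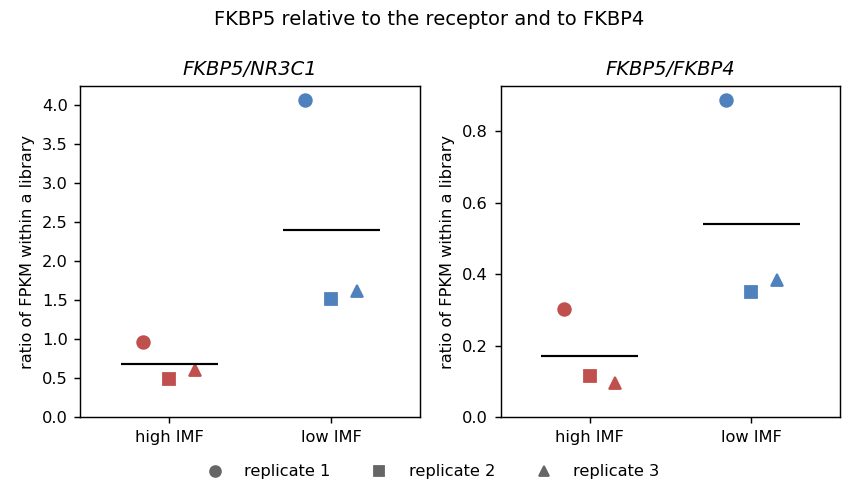
Ratio of the FPKM of FKBP5 to that of NR3C1 (left) and to that of FKBP4 (right) within each library (y axes, linear, from 0). Points are libraries, shapes give the replicate number and bars are group means. In both panels the 3 high IMF points lie below the 3 low IMF points, and low IMF replicate 1 is the highest.

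The 9 genes did not move as a block across libraries. High IMF replicate 1 was the highest of the high IMF libraries for 5 genes and high IMF replicate 3 the lowest for 5. The median deviation of the 9 genes from their own means was 0.11, -0.18 and -0.57 (log2 CPM) in high and 0.1, 0.22 and 0.35 in low IMF replicates 1 to 3. Low IMF replicate 1 was the lowest of all libraries for NR3C1 and GLUL and at the same time the highest for FKBP5 and CDKN1C. Low IMF replicates 2 and 3 differed by 0.208% (TSC22D3) to 18.5% (HSD11B1) in CPM.

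**Figure D4:**
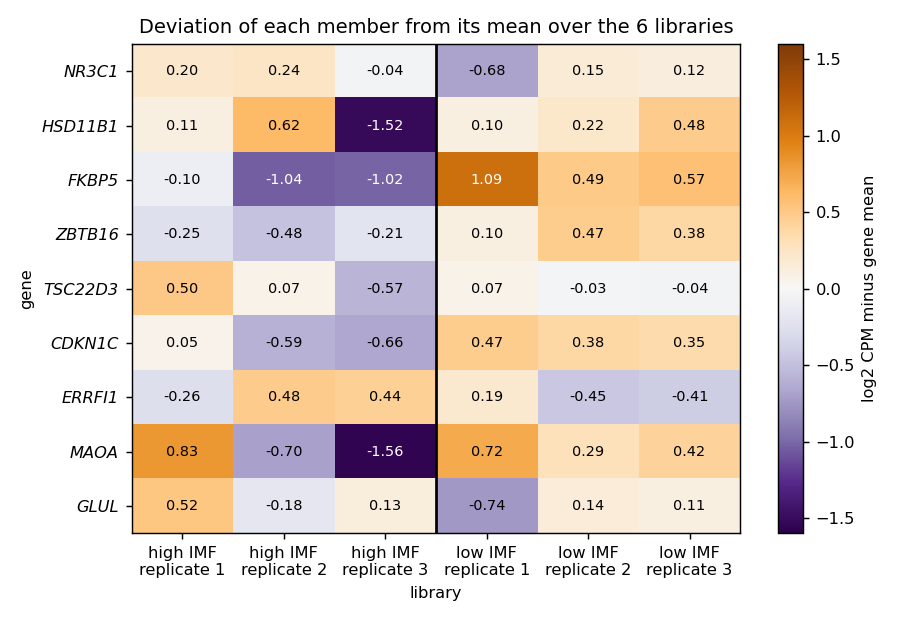
Deviation of each gene (rows) in each library (columns) from that gene's mean over the 6 libraries, in log2 CPM. Orange is above and purple below the mean, and a line parts the high from the low IMF libraries. FKBP5 runs from -1.04 in high IMF replicate 2 to 1.09 in low IMF replicate 1, and MAOA and HSD11B1 are lowest in high IMF replicate 3 (-1.56 and -1.52).

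Likeness of pattern was measured as the root mean square difference of mean-centred log2 CPM over the 6 libraries, among 8123 genes with a symbol and at least 10 CPM. Nearest to FKBP5 was BTNL9 (0.153), followed by SLC1A3 (0.271), KLF15 (0.283), PDE4B (0.288) and TULP1 (0.304), where the median gene was at 0.827. BTNL9 measured 55.7, 36.1 and 36.2 CPM in high and 175, 113 and 118 CPM in low IMF replicates 1 to 3, the same order of libraries as FKBP5 in both groups. Of the other members with at least 10 CPM, CDKN1C was the nearest to FKBP5 (0.365) and ERRFI1 the farthest (1.09). Nearest to NR3C1 were CHPF (0.0328), VWA5A (0.0586), ZNF318 (0.0599), C2CD2 (0.0639) and MFHAS1 (0.067), all with their lowest level in low IMF replicate 1. GLUL was the member closest to NR3C1 (0.227). The libraries share depth and cell makeup across genes, so these distances describe the 6 libraries only.

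Around the 9 genes, other parts of the pathway were read from lists. Of 32 further genes that glucocorticoids are known to induce, 30 were listed and 29 tested. None passed in edgeR, and in DESeq2 4 passed, beside 1.15% of all genes with an adjusted p. Of these 4, PER1, KLF15 and SESN1 were lower and SGK1 was higher in high IMF muscle. At an unadjusted p under 0.05 in edgeR, 9 of the 29 were lower (31%), against 2.74% of all genes tested, and 1 was higher (SGK1). Scaling by library size alone left 5 lower (with it the median gene stood at a log2 fold of 0.15), and the other settings gave 7 to 10. The list was drawn up when low levels of PER1 and KLF15 in high IMF muscle were already known, so its counts are not independent evidence of a direction. Its median log2 fold was -0.23 beside 0.01 over all genes tested, and 17 of the 29 were negative (58.6%), beside 48.8% of all genes tested.

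The clock gene PER1 measured 106, 151 and 137 CPM in high and 362, 393 and 368 CPM in low IMF replicates 1 to 3. SESN1, a brake on the growth kinase mTOR, measured 108.5, 128 and 101 CPM in high and 272, 219 and 209 CPM in low IMF replicates 1 to 3, with a log2 fold of -1.05 ± 0.19 (SE) and an adjusted p of 0.431 in edgeR. KLF15, a factor for amino acid breakdown in muscle, had a log2 fold of -1.44 ± 0.28 (SE). Each of these 3 genes had its groups well apart. The kinase gene SGK1 lay on the opposite side, with 42.9, 40.8 and 36.9 CPM in high and 12.4, 18.3 and 23.1 CPM in low IMF replicates 1 to 3 (adjusted p = 0.504 in edgeR and 0.00778 in DESeq2). The remaining 6 genes at an unadjusted p under 0.05, named after their values were seen, were all lower in high IMF muscle without overlap. They were the transcription factor genes FOXO1, CEBPD and BCL6, the NF-kB inhibitor NFKBIA, the insulin signalling subunit PIK3R1 and the arrestin-domain gene ARRDC2, with log2 folds of -0.46 to -0.99.

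Of 13 genes that glucocorticoids are known to repress, 12 were listed and 10 tested, and 9 of the 10 had a positive log2 fold, beside 51.2% of all genes tested. Of these 9, TNF and NR4A1 are named after their values were seen. TNF averaged 2.95 CPM in high and 2.94 CPM in low IMF muscle, a log2 fold that rounds to 0. NR4A1 (log2 fold 0.59) had 35.8 CPM in low IMF replicate 1 and 850 to 1565 CPM in the other libraries. None of the 10 passed in edgeR, and 3 had an unadjusted p under 0.05, all higher in high IMF muscle, beside 4.53% of all genes in that direction. CXCL10, a chemokine that attracts T cells, measured 8.26, 9.49 and 5.56 CPM in high and 4.19, 1.75 and 1.90 CPM in low IMF replicates 1 to 3, and it passed in DESeq2 (adjusted p = 0.0351). SELE, the endothelial adhesion receptor E-selectin, measured 2.85, 7.22 and 3.30 CPM in high and 0.98, 2.18 and 2.48 CPM in low IMF replicates 1 to 3. The third, the metalloproteinase gene MMP9, stayed under 1 CPM in every library. POMC, the precursor of the pituitary hormone that drives the adrenal, averaged 25.6 ± 6.04 CPM in high and 18.6 ± 4.64 CPM in low IMF muscle, and the adhesion gene ICAM1 16.99 ± 5.91 and 11.8 ± 2.72 CPM (SD, n = 3 each), both with overlap. A higher CXCL10 in high IMF muscle was known when the list was drawn up, so its counts are not independent evidence of a direction. The summed level of 7 macrophage markers was 110, 58.2 and 23.2 CPM in high and 27.8, 33.0 and 31.8 CPM in low IMF replicates 1 to 3, and that of 8 lymphocyte markers 12.1 to 24.2 CPM in high and 3.21 to 12.9 CPM in low IMF libraries. Their part in these levels was not tested.

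Of 10 receptor relatives and genes of steroid handling, 8 were listed and 7 tested. The groups overlapped for all 7, where 13% of all genes tested had separate groups. In edgeR 0 of the 7 had an unadjusted p under 0.05, against 7.27% of all genes tested. In DESeq2 0 passed, beside 1.15% of all genes with an adjusted p. A list of 7 genes is too short to tell 0 from these shares. The mineralocorticoid receptor gene NR3C2, whose product also binds cortisol, was steady at 18.1 ± 1.16 CPM in high and 18.6 ± 1.29 CPM in low IMF muscle, with a log2 fold of -0.04 and a 95% interval of -0.39 to 0.31. H6PD, which supplies cofactor to the HSD11B1 enzyme, measured 23.6, 43.4 and 50.3 CPM in high and 38.6, 38.6 and 40.2 CPM in low IMF replicates 1 to 3. The steroid reductase gene SRD5A1 averaged 10.6 ± 3.52 CPM in high and 9.73 ± 2.46 CPM in low IMF muscle (SD, n = 3 each).

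All 13 chaperone genes listed were tested. In edgeR 0 had an unadjusted p under 0.05, against 7.27% of all genes tested, and in DESeq2 0 passed, beside 1.15% of all genes with an adjusted p. With 13 genes, 0 cannot be told from these shares. The groups were separate for HSP90AB1, HSPA4 and DNAJA1, all higher in high IMF muscle, beside 6.86% of all genes tested in that direction. HSP90AB1, a main chaperone of the receptor, measured 359.5, 464 and 342 CPM in high and 261, 304 and 324 CPM in low IMF replicates 1 to 3. DNAJA1 had a log2 fold of 0.4 ± 0.18 (SE), DNAJB1 of 0.35 ± 0.19 and HSPA4 of 0.24 ± 0.17, its lowest high and highest low IMF libraries both at 97.6 CPM.

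Of 13 coregulator genes, all tested, none passed in edgeR or DESeq2, beside 0% of all genes tested and 1.15% of those with a DESeq2 adjusted p. At an unadjusted p under 0.05 in edgeR there was 1 of the 13 (7.69%), against 7.27% of all genes tested. The groups were separate for 4 of the 13 (30.8%), where 6.86% of all genes tested had separate groups with high IMF higher and 6.1% with high IMF lower. The coactivator genes NCOA1 (37.3 ± 4.67 and 30.8 ± 0.828 CPM) and MED1 (54.3 ± 6.77 and 45.8 ± 0.884 CPM) were above the low IMF range in every high IMF library, and CRTC2 (26.4 ± 4.19 and 32.6 ± 1.17 CPM) was below it (means ± SD in high and low IMF muscle, n = 3 each).

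Leaving out each library in turn kept the sign of the log2 fold for FKBP5 (-1.79 to -1.19), ZBTB16 (-0.75 to -0.56), CDKN1C (-1.04 to -0.64), MAOA (-1.57 to -0.24), ERRFI1 (0.3 to 0.67) and GLUL (0.05 to 0.43). It changed once each for NR3C1, HSD11B1 and TSC22D3.

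**Figure D5:**
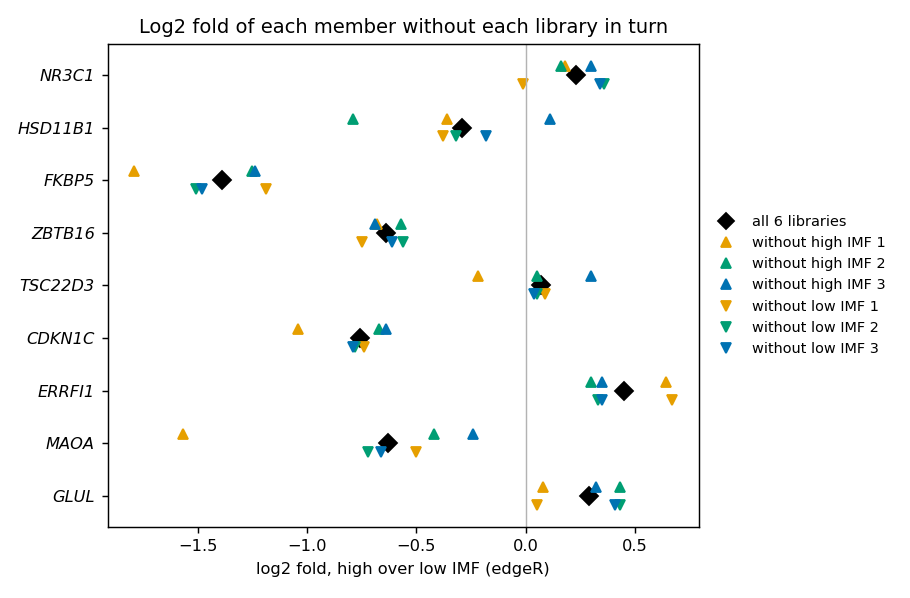
Log2 fold of high over low IMF (x axis, edgeR) of each of the 9 genes with all 6 libraries (diamond) and without each library in turn (triangles, pointing up where a high IMF library and down where a low IMF library was left out). FKBP5 stays between -1.79 and -1.19, and the widest spread is that of MAOA, from -1.57 to -0.24, set by high IMF replicates 1 and 3.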

How the data were processed

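Read counts per gene, whole numbers, were deposited by the authors for 6 libraries, and the series' table and the sample files held the same counts (0 cells differed). The submitters' processing notes name HISAT2 and mm9, a mouse build, while most of the deposited protein descriptions name donkey or horse species. Neither the genome aligned to nor the counter and its strand handling is stated in the labels, so no coordinates are printed. FPKM values deposited by the authors served to compare levels between genes. The authors' comparison, whose test is not stated, was deposited as a fold (ratio), a log2 fold and p-values. Counts were tested in edgeR 4.0.16 (R 4.3.3) with TMM normalization, filterByExpr and the quasi-likelihood F-test, Benjamini-Hochberg adjusted over 15933 genes (99.96% of reads). The SE is the absolute log2 fold over the square root of F, and intervals are 95%. The pipeline was tested on simulated counts. Alternatives used DESeq2 1.42.0, limma 3.58.1 (voom), other scalings and filters, a replicate block, low IMF replicates 2 and 3 summed, and the omission of each library.

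The 9 genes and the 5 lists were chosen with earlier results of these data known. From each list, genes called or, with none called, up to 4 genes of smallest p with a mean of at least 1 CPM were named, with the 5 genes nearest in pattern to NR3C1 and to FKBP5; others are said to be chosen later. Some genes of these lists are not reported here. Of the list and marker genes, 4 listed by LOC number were matched by gene identifier in RefSeq (EquAss-T2T_v2). Likeness used a prior count of 2. An 8th marker list, of red blood cells, had 2 of 3 genes listed and summed to 1.20 to 14.3 CPM in high and 0.389 to 2.38 CPM in low IMF libraries, with ALAS2 at 0 in all low IMF libraries.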

Additional observations from a re-analysis of the deposited data

How the results depend on the processing

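Most values kept their direction and stayed on the same side of the threshold under the alternatives run. In DESeq2, 102 genes were called higher and 78 were called lower where edgeR called 0 and 0, and DESeq2 called 1 of the 9 genes, 4 of the induced and 1 of the repressed list where edgeR called 0 in each; the cause was not tested. Leaving out single libraries gave 0 to 3 genes lower in edgeR, the 3 without high IMF replicate 1. The log2 fold changed sign for H6PD with library size only (0.1) and with the stricter filter (0.01), and for NR3C2 with library size only (0.11). Without single libraries it ranged from -0.01 to 0.36 for NR3C1, from -0.79 to 0.11 for HSD11B1, from -0.22 to 0.3 for TSC22D3, from -0.23 to 0.24 for H6PD, from -0.11 to 0 for NR3C2 and from -0.17 to 0.32 for SRD5A1. The log2 difference of FKBP5 per NR3C1 ranged from -1.98 to -1.25 and that of FKBP5 per FKBP4 from -2.24 to -1.3. With library size only, the log2 fold of the median gene was 0.15 in place of 0.01 and the share of higher genes among those at an unadjusted p under 0.05 was 84.8% in place of 62.3%. FKBP5 and ZBTB16 had an unadjusted p under 0.05 in every setting, and CDKN1C in every setting but library size only.

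Same-numbered libraries deviated together only in part (correlations of 0.2, 0.15 and 0.02), so the numbers were not taken as pairs. With the replicate number as a block, edgeR called 0 genes, and the log2 fold was -1.44 for FKBP5, -0.95 for MAOA and -0.49 for HSD11B1. High IMF replicate 2 deviated most like low IMF replicate 3 (0.21). Of the 9 genes depth limits HSD11B1 most, with as few as 14 reads in a library, and MMP9 of the repressed list had 2 to 53 reads.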

Other observations

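Several glucocorticoid-induced genes varied several-fold within a group, and they were picked for description after their values had been seen. PDK4, the kinase that turns off glucose oxidation, measured 171, 6.02 and 3.85 CPM in high IMF replicates 1 to 3 and 10.4, 77.2 and 71.2 CPM in low IMF replicates 1 to 3. ANGPTL4, an inhibitor of lipoprotein lipase, measured 14.2, 8.82 and 12.9 CPM in high and 2.48, 40.0 and 32.4 CPM in low IMF replicates 1 to 3. DUSP1, a phosphatase that shuts off stress kinases, measured 1031, 294 and 541 CPM in high and 146.5, 397 and 388 CPM in low IMF replicates 1 to 3. Low IMF replicate 1 was thus the lowest of the low IMF libraries for all 3 genes.

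The muscle ubiquitin ligase genes TRIM63 and FBXO32 did not share a direction. TRIM63 measured 99.3, 240 and 369 CPM in high and 111, 178 and 184 CPM in low IMF replicates 1 to 3 (log2 fold 0.58), and FBXO32 139.5, 164 and 165 CPM in high and 118, 296 and 283 CPM in low IMF replicates 1 to 3 (log2 fold -0.57). Neither passed in edgeR (adjusted p = 0.878 and 0.825). MSTN, an inhibitor of muscle growth, was scarce, with 4.13, 8.67 and 10.6 CPM in high and 8.75, 3.03 and 2.09 CPM in low IMF replicates 1 to 3. HSD11B2, which inactivates cortisol and so opposes HSD11B1, averaged 0.798 ± 0.319 CPM in high and 0.376 ± 0.14 CPM in low IMF muscle (SD, n = 3 each), with overlap.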
